A study of Mus musculus with 4 samples.

Results

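The Notch pathway was followed through 10 genes: the receptors Notch1, Notch2 and Notch3, the ligands Dll1, Dll4, Jag1 and Jag2, the fringe enzyme Lfng, the DNA-binding protein Rbpj and the target gene Hes1. They were chosen by name, with earlier results of these data known, and found by matching the Ensembl identifiers of the deposited count tables to mouse symbols. All 10 were among the 38124 genes of each table, and 9 passed a filter of at least 20 counts in at least 2 libraries; Notch3 did not. RNA was measured in intestinal cells of C57BL/6 mice, sorted into GFP-high cells (intestinal stem cells in the labels) and GFP-low cells (progenitors). The mice were males aged 71 weeks fed high-fat food (HFD) or a normal diet, called control here (the sample titles call these mice WT), and each library pooled 2 to 5 mice. There was 1 library for each of the 4 groups, that is for GFP-high and GFP-low under either diet. No group has a replicate. The sources used here give neither the gene that drives GFP nor the makeup of the diets, nor whether the GFP-high and GFP-low cells of 1 diet were taken from the same animals. Where 2 levels are given for 1 fraction, joined by "and", that of HFD comes first and that of control second.

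Notch signalling passes between cells in contact. A ligand of the Delta-like or Jagged family on one cell binds a Notch receptor on its neighbour, the receptor is cut by ADAM proteases and gamma-secretase, and its intracellular part enters the nucleus and joins Rbpj to switch on genes such as Hes1. In the crypts of the intestine Notch activity keeps stem cells and absorptive progenitors from becoming secretory cells, because Hes1 holds back Atoh1, the transcription factor of the secretory lineage. Cells that do express Atoh1 in turn make the ligands Dll1 and Dll4.

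The libraries held 4677389 to 6207080 counts. Levels are given as CPM, counts per 1000000 after TMM scaling of the library sizes, and 3 counts, the limit for a gene at 0, correspond to 0.449 to 0.680 CPM. The sort was checked on markers. All 10 stem cell markers, Lgr5 among them, were higher in GFP-high, whereas 8 of 9 absorptive and 7 of 7 goblet markers were higher in GFP-low (edgeR's quasi-likelihood test, adjusted p under 0.05). Also higher in GFP-low were 6 of 7 Paneth, 5 of 8 enteroendocrine and 2 of 3 tested tuft markers. Over all tested genes 22.0% were called higher and 25.6% lower in GFP-high. Other cell types that carry Notch genes left few counts: of 8 endothelial markers Cdh5 and Emcn had no count in any library and Pecam1 had 1 or 2, and of 8 mesenchymal and pericyte markers Col1a1 and Col3a1 had none. Of 8 leukocyte markers, Ptprc and Csf1r were among those with no count. The endothelial list summed to 12.9 and 11.6 CPM in GFP-high and to 2.02 and 3.85 CPM in GFP-low, most of it Esam, which was also higher in GFP-high (edgeR adjusted p = 0.000257). The leukocyte list summed to 13.2 and 16.3 CPM in GFP-high and to 25.5 and 36.9 CPM in GFP-low, most of it Itgam, and the mesenchymal list to 2.63 to 4.19 CPM in all libraries. Their part in the results was not tested.

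The fractions were compared first, over both diets, in a model of fraction plus diet fitted to all 10694 genes that passed the filter. Since each group has 1 library, the p-values of this model do not measure the spread between pools of mice. Both receptors among the members that could be tested, and Hes1, were higher in GFP-high. Of the 4 ligands, 3 were higher in GFP-low. Of the 9 members tested, 5 rose in GFP-high (Notch1, Notch2, Lfng, Rbpj and Hes1), 3 fell (Dll1, Dll4 and Jag1) and Jag2 was not called. Over all tested genes 22.0% were called higher and 25.6% lower in GFP-high, 47.6% in all, so calls are common in this comparison. In pools of cells, fewer cells of a type and less RNA per cell cannot be told apart. Within HFD, Notch1, Notch2 and Lfng were at least 2-fold higher in GFP-high, as were 6.43% of tested genes, and no member was at least 2-fold lower (8.67%). Within control, Notch1 and Notch2 were at least 2-fold higher (5.69% of tested genes), and Dll1 and Dll4 at least 2-fold lower (8.92%). These ratios of 1 library to 1 library have no test. By counting error alone, 5 members were higher and 2 lower within HFD (28.3% and 31.7% of tested genes) and 4 higher and 2 lower within control (26.2% and 29.6%). The median log2 ratio of the 9 members was 0.36, which is the value of Rbpj, against -0.000677 over all tested genes. As members were chosen with earlier results of these data known, these counts and this median only describe the list.

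**Figure D1:**
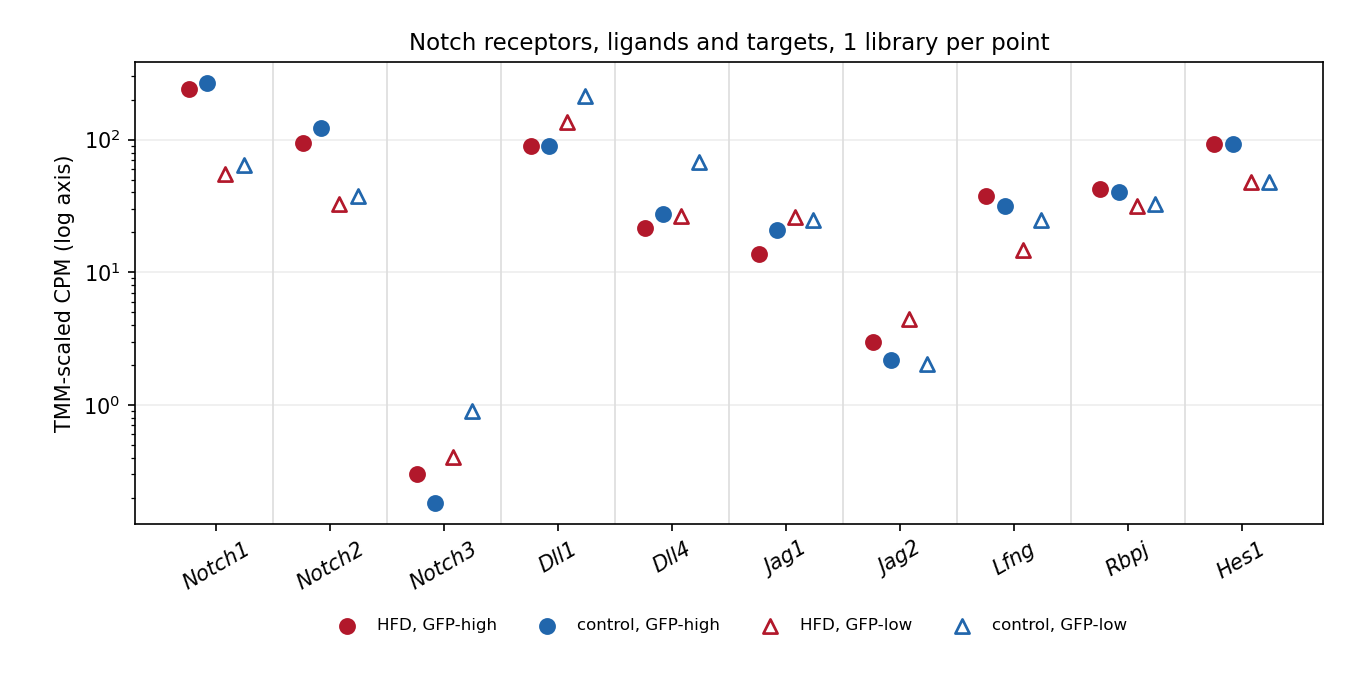
Level of each of the 10 genes in each library, in TMM-scaled CPM on a log axis; each point is 1 library, circles are GFP-high, triangles are GFP-low, red is HFD and blue is control. Notch1, Notch2 and Hes1 lie higher in both GFP-high libraries, Dll1 lies higher in both GFP-low libraries, and Notch3 stays below 1 CPM.

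Promoter sequence is shown for genes on both sides of this division: the receptors Notch1 and Notch2 and the fringe enzyme Lfng, which were higher in GFP-high, and the ligands Dll1 and Dll4, which were higher in GFP-low. Each is the 250 bases before the start of a RefSeq transcript (GRCm38.p6), written 5′ to 3′ on the gene's own strand. Capitals mark TGGGAA, the core bound by Rbpj, with the preceding G where it extends to GTGGGAA. They also mark CAGCTG, an E-box of the kind bound by basic helix-loop-helix factors such as Atoh1. Both strands were searched. RefSeq entries were found for 9 of the 10 members, all but Hes1. The windows are chr2:26503823-26504072 (Notch1, minus strand), chr3:98013288-98013537 (Notch2, plus), chr5:140607091-140607340 (Lfng, plus), chr17:15376933-15377182 (Dll1, minus, the more upstream of its 2 entries) and chr2:119325534-119325783 (Dll4, plus).
Notch1: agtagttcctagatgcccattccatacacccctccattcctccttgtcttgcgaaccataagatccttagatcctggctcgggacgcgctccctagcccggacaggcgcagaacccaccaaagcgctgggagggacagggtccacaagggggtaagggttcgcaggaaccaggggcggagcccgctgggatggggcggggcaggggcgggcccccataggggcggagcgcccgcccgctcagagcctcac
Notch2: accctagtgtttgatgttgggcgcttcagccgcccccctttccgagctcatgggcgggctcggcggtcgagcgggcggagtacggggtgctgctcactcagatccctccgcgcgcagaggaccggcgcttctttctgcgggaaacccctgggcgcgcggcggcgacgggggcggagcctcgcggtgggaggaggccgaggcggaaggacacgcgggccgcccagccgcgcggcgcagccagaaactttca
Lfng: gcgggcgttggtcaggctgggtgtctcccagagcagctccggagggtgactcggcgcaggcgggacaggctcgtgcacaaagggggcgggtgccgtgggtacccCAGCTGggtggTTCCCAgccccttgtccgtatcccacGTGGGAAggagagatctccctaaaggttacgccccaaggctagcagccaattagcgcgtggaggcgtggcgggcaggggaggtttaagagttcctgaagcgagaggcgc
Dll1: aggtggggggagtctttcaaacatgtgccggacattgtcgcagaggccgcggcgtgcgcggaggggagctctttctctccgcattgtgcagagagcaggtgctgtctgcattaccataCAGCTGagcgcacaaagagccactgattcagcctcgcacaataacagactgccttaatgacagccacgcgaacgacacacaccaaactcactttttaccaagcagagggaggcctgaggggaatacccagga
Dll4: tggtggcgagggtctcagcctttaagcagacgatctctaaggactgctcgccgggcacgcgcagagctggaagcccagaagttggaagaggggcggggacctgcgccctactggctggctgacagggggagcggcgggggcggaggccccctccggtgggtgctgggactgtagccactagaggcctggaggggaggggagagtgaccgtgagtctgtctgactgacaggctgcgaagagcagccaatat

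Of these 5 windows, Lfng held TGGGAA 2 times, on opposite strands, and CAGCTG 1 time, Dll1 held CAGCTG 1 time, and the windows of Notch1, Notch2 and Dll4 held neither. The other Dll1 entry (chr17:15375824-15376073), not shown, held neither. Among members not shown, Rbpj held TGGGAA 2 times in 1 entry and 1 time in another that overlaps it. Jag1 held CAGCTG 1 time, and Notch3 and Jag2 held neither. One of the Lfng matches extends to GTGGGAA, a longer form that overlaps TGGGAA. Among 32851 RefSeq windows of the same length, 21.6% held TGGGAA, 5.42% held GTGGGAA and 13% held CAGCTG on either strand. The Notch1 window lies inside the gene as GENCODE draws it, the Dll1 window inside an exon of the noncoding gene A930024N18Rik and the Dll4 window inside Gm14207, both on the opposite strand. These matches describe letters in a short window, not bound sites.

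Among the receptors, Notch1 and Notch2 had the largest fraction differences of all members. Notch1 (chr2:26457903-26516663; all gene positions are from GENCODE M21, GRCm38), which together with Notch2 maintains crypt progenitors, was at 243 CPM in HFD GFP-high and 267 CPM in control GFP-high, against 54.8 and 64.8 CPM in GFP-low. Both GFP-high libraries stood far above both GFP-low libraries, 4.27-fold over the diets (log2 ratio 2.09, SE 0.10; adjusted p = 2.14e-10 in edgeR). Notch2 (chr3:98013527-98150361) was at 93.8 and 122 CPM in GFP-high against 32.8 and 37.4 CPM in GFP-low. The fractions did not overlap, and Notch2 was 3.05-fold higher in GFP-high (log2 ratio 1.61, SE 0.12; adjusted p = 2.77e-08 in edgeR). How many of all tested genes show such a gap was not counted, for these or for other genes described so. With so few libraries a gap alone is weak evidence. Notch3, a receptor known mainly from vascular smooth muscle and pericytes, had 1 to 4 counts per library, which is too few to compare. Notch1 shares 1068 exon bases with 0610009E02Rik on the opposite strand, a transcript with 1 to 7 counts per library.

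Hes1 (chr16:30064384-30067796), the transcriptional repressor that Notch switches on, was at 92.9 and 93.2 CPM in GFP-high against 47.8 and 48.0 CPM in GFP-low. The pair of values within each fraction was nearly equal, and Hes1 was 1.94-fold higher in GFP-high (log2 ratio 0.96, SE 0.11; adjusted p = 4.89e-06 in edgeR). Rbpj (chr5:53466152-53657362), the DNA-binding partner of the cleaved receptor, was at 42.7 and 40.0 CPM in GFP-high against 31.8 and 32.6 CPM in GFP-low. This is a small difference of 1.29-fold (log2 ratio 0.36, SE 0.14; adjusted p = 0.0399 in edgeR). It did not pass in DESeq2's Wald test (adjusted p = 0.388) or in edgeR without diet as a term (adjusted p = 0.111).

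Lfng (chr5:140607320-140615545), a glycosyltransferase that modifies Notch receptors and shifts their response between Delta-like and Jagged ligands, was at 37.3 and 31.9 CPM in GFP-high against 14.8 and 24.7 CPM in GFP-low. Both GFP-high libraries were above both GFP-low libraries, 1.79-fold over the diets (log2 ratio 0.84, SE 0.21; adjusted p = 0.00878 in edgeR). The ratio was uneven between diets, at log2 1.31 (counting interval 0.95 to 1.73) under HFD and 0.36 (0.01 to 0.73) under control. Such intervals, at 95%, come exactly from the Poisson error of both counts and cover counting error only, not the spread between pools of mice. Lfng was not called by DESeq2 (adjusted p = 0.0523) or in edgeR without diet as a term (adjusted p = 0.0532).

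Among the ligands, Dll1 (chr17:15367354-15376872) was at 90.3 and 89.8 CPM in GFP-high against 135 and 213 CPM in GFP-low. GFP-low was higher in both diets, 1.88-fold over them (log2 ratio -0.91, SE 0.15; adjusted p = 0.00106 in edgeR). Dll4 (chr2:119325784-119335962) was at 21.7 and 27.3 CPM in GFP-high against 26.5 and 67.7 CPM in GFP-low, so the control GFP-low library stood alone and the HFD GFP-low library lay between the GFP-high libraries. Over both diets Dll4 was 1.80-fold higher in GFP-low (log2 ratio -0.85, SE 0.23; adjusted p = 0.0179 in edgeR). Dll1 shares 867 exon bases with A930024N18Rik and Dll4 shares 214 with Gm14207, both on the opposite strand and at 14 to 26 counts in every library.

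Jag1 (chr2:137081456-137116644), a Jagged ligand, was at 13.8 and 20.8 CPM in GFP-high against 25.9 and 24.9 CPM in GFP-low. Both GFP-low libraries were above both GFP-high libraries (log2 ratio -0.58, SE 0.19; adjusted p = 0.0189 in edgeR). Jag2 (chr12:112907819-112929776), the other Jagged ligand, was low throughout, with 20 and 12 counts in GFP-high and 22 and 9 in GFP-low. Its fractions overlapped, and its log2 ratio of -0.32 ± 0.42 SE did not pass (edgeR adjusted p = 0.554). The calls for both Dll4 and Jag1 were lost with library totals in place of TMM (adjusted p = 0.0574 and 0.0948) and without diet as a term (0.235 and 0.113), and that of Jag1 also in DESeq2 (0.25). Scaling by totals raised the median log2 ratio of all genes from -0.000677 to 0.19 and left every tested member on the same side of 0.

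**Figure D2:**
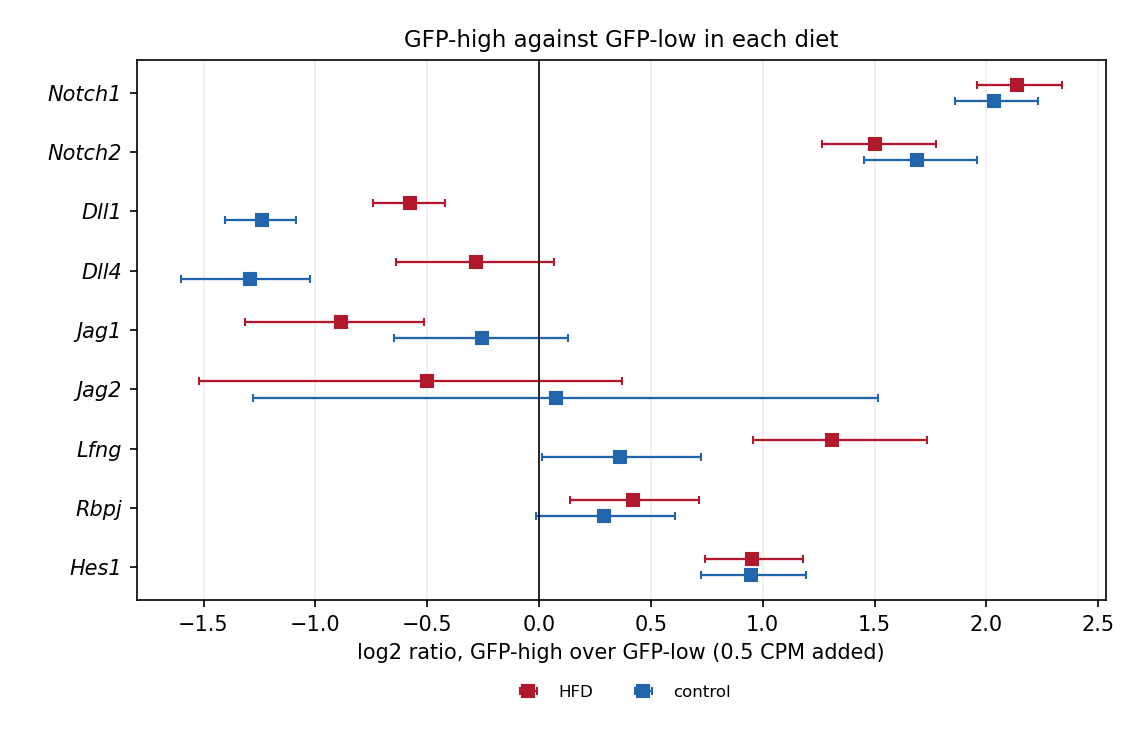
Fraction difference, as log2 of GFP-high divided by GFP-low, for the 9 members that passed the filter, in HFD (red) and control (blue), 1 library per fraction, with 0.5 CPM added to each value; bars are exact 95% counting intervals of the ratio without that addition. Notch1 and Notch2 lie far to the right in both diets, and Dll1 and Dll4 lie farther to the left under control than under HFD.

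Levels of different genes were compared per length, as CPM per kilobase of merged exons. Hes1 and Dll1 led the members in every library. In GFP-high Hes1 was first, at 45.6 (counting interval 42.1 to 49.3) and 45.8 (41.9 to 49.9) CPM per kb. In GFP-low Dll1 was first, at 32.0 (29.7 to 34.6) and 50.4 (47.2 to 53.8) CPM per kb. Dll1 was the most abundant ligand everywhere and made up 66.0% to 72.8% of the summed ligand level per length. Dll4 made up 15.6% to 24.2% and both Jagged ligands together 6.30% to 12%. Jag2 was the lowest ligand, at 0.293 to 0.639 CPM per kb.

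Summed per length, the 3 receptors stood at 25.8 and 30.1 CPM per kb in GFP-high and at 6.94 and 8.13 in GFP-low. The 4 ligands stood at 29.8 and 32.3 CPM per kb in GFP-high and at 44.0 and 72.6 in GFP-low. The ratio of ligands to receptors was 6.34 and 8.93 in GFP-low. In GFP-high it was 1.16 and 1.07, and it turned to 0.986 and 0.918 when the longest transcript was taken as gene length, against 5.62 and 7.84 in GFP-low. Notch1 gave 55.5% to 66.1% of the receptor sum. In HFD GFP-low, Notch1 at 3.85 (3.41 to 4.34) and Jag1 at 4.44 (3.71 to 5.28) CPM per kb had overlapping counting intervals, whereas that of Notch2, at 3.04 (2.59 to 3.55), did not reach that of Jag1. With the longest transcript Notch1 also passed Dll1 in both GFP-high libraries, at 25.6 and 28.1 against 25.2 and 25.1 CPM per kb.

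**Figure D3:**
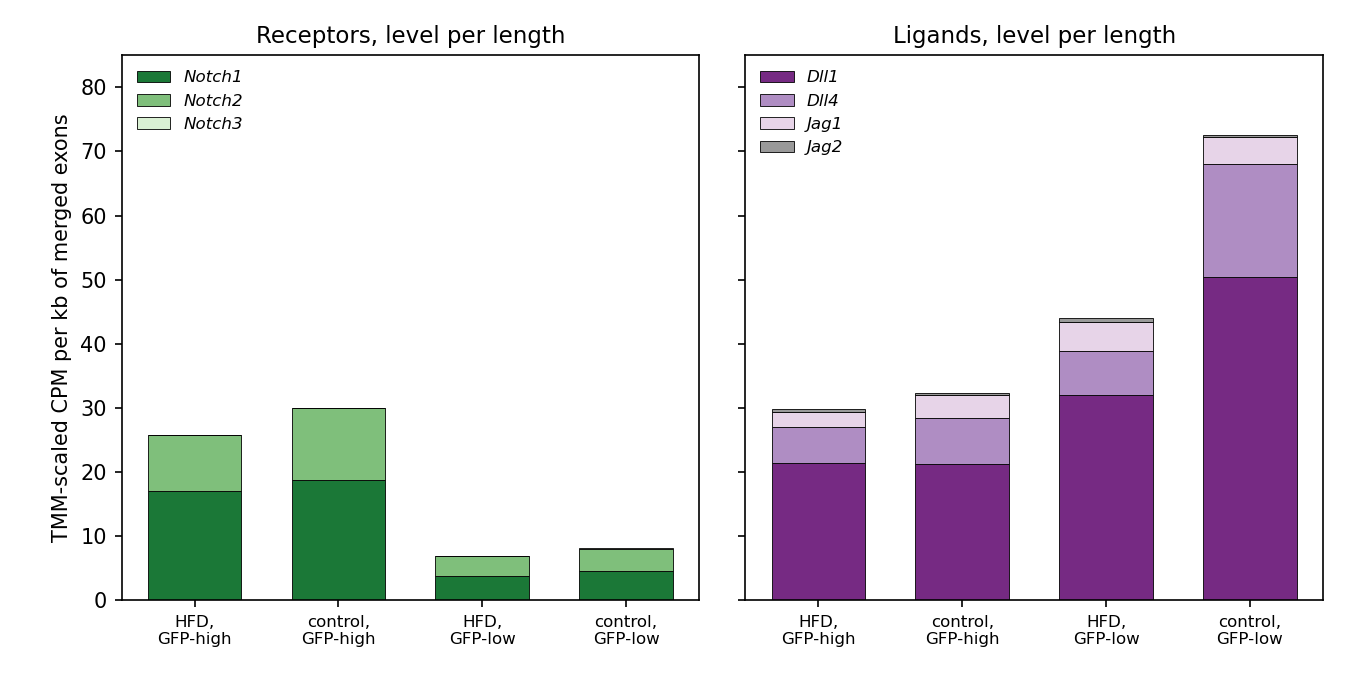
Summed level of the 3 receptors (left) and the 4 ligands (right) in each library, in TMM-scaled CPM per kilobase of merged exons, with stacked bars that start at 0; Notch3 and Jag2 are too low to see as layers of any height. Receptors are taller in both GFP-high libraries, and ligands reach 72.6 in the control GFP-low library.

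The diets were then compared, which addresses how a high-fat diet alters the stem cell and progenitor fractions. None of the 9 tested members was called for diet over both fractions, where 2.96% of all tested genes were called higher and 3.50% lower under HFD, 6.46% in all (edgeR, adjusted p under 0.05). At an unadjusted p under 0.05 there were 2, Dll4 and Notch2, both at lower levels under HFD. Of all 10694 tested genes, 2174 had such a p in either direction. Dll4 had a log2 value of -0.87 (SE 0.23; edgeR adjusted p = 0.0726) and Notch2 of -0.30 ± 0.12 SE (edgeR adjusted p = 0.147). The median over the 9 members was -0.18, against 0.01 over all tested genes. Without the filter on low counts, Dll4 (edgeR adjusted p = 4.52e-07) and Dll1 (adjusted p = 0.029) were called lower under HFD, whereas DESeq2 called no member of the list (adjusted p = 0.226 for Dll4, and none could be given for Jag2). Over 8 alternatives the adjusted p of Dll4 ran from 4.52e-07 to 1. These p-values do not measure the spread between pools of mice in any case. If GFP-high and GFP-low cells of 1 diet share mice, they are also too small.

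Hes1 was the member that moved least with diet, with log2 ratios of -0.01 in both fractions (counting intervals -0.18 to 0.17 in GFP-high and -0.28 to 0.27 in GFP-low). Its fitted ratio was -0.01 ± 0.11 SE (edgeR adjusted p = 0.986). Rbpj, at 0.04 ± 0.14 SE, also missed the threshold (edgeR adjusted p = 0.92). Notch1 was 1.1-fold lower under HFD in GFP-high and 1.18-fold lower in GFP-low, and Notch2 1.3-fold and 1.14-fold lower. All 4 of these receptor ratios pointed the same way, and neither receptor passed the test. In GFP-low the counting intervals included 0 (log2 -0.49 to 0.004 for Notch1 and -0.51 to 0.13 for Notch2), whereas in GFP-high they did not. How many of all tested genes keep 1 direction in both fractions was not counted.

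Within GFP-low, where each diet has 1 library and no test applies, both Delta-like ligands and Lfng were lower under HFD. Dll4 was at 26.5 CPM against 67.7 in control, 2.53-fold lower (log2 -1.34, counting interval -1.66 to -1.05). It was the only member with an at least 2-fold diet difference in either fraction, where 2.45% of all tested genes were at least 2-fold lower in GFP-low and 1.51% at least 2-fold higher. Dll1 was at 135 against 213 CPM (log2 -0.65, -0.80 to -0.51), and Lfng at 14.8 against 24.7 CPM (log2 -0.72, -1.19 to -0.30). These 3 of 9 members had counting intervals below 0, as did 16.8% of all tested genes. Jag2 had 22 counts under HFD against 9, and its log2 ratio of 0.96 had an interval of -0.05 to 2.43 that includes 0. Jag1 was at 25.9 against 24.9 CPM (log2 0.05, -0.32 to 0.44).

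Within GFP-high, Dll1 was at 90.3 CPM under HFD against 89.8 in control (log2 0.01, counting interval -0.16 to 0.18). Dll4 was at 21.7 against 27.3 CPM (log2 -0.32, -0.67 to 0.01). Jag1 was at 13.8 against 20.8 CPM (log2 -0.58, -1.01 to -0.19) and was, with Notch1 and Notch2, 1 of 3 members whose interval lay below 0, as did 14.5% of all tested genes. No member was at least 2-fold apart in GFP-high, where 0.888% of tested genes were at least 2-fold higher and 1.41% at least 2-fold lower under HFD.

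**Figure D4:**
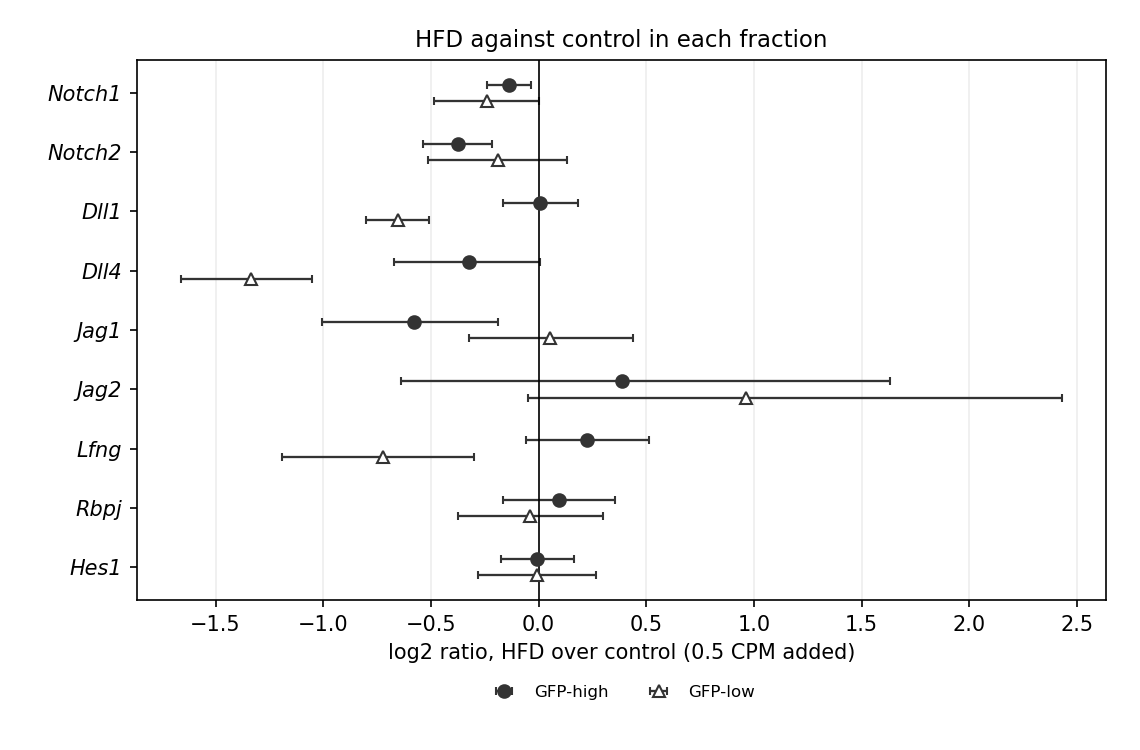
Log2 ratio of HFD over control for the 9 members that passed the filter, in GFP-high (filled circles) and GFP-low (open triangles), 1 library per diet, with 0.5 CPM added to each value; bars are exact 95% counting intervals of the ratio without that addition. The bars of Dll1, Dll4 and Lfng lie wholly left of 0 in GFP-low and not in GFP-high, those of Jag1, Notch1 and Notch2 do so in GFP-high and not in GFP-low, and both Hes1 points sit at 0.

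The diet ratio in GFP-high minus that in GFP-low can be given as a value only, since 4 libraries leave no spread to test it. It was 1.01 for Dll4 (counting interval 0.57 to 1.46), 0.95 for Lfng (0.44 to 1.46), 0.66 for Dll1 (0.44 to 0.88) and -0.63 for Jag1 (-1.17 to -0.09) on the log2 scale. The first 3 lay above 0 by counting error, as did 9.65% of all genes tested, and Jag1 lay below, as did 9.01%. For Hes1 the difference was 0.00 (-0.31 to 0.32) and for Notch1 0.10 (-0.16 to 0.36). Dll4 was the 1 member with a difference of at least 1, as were 1.94% of genes tested, and none was at -1 or below (1.41%).

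Most genes of a list of secretory fate genes, which Notch holds back, were lower in GFP-high, as the Delta-like ligands were. Of 7 secretory fate genes, all tested, 6 fell in GFP-high, none rose and Pou2f3, the tuft cell factor, was not called. Over all tested genes 25.6% were called lower and 22.0% higher. Atoh1 was at 38.1 and 43.8 CPM in GFP-high against 81.7 and 180 CPM in GFP-low (log2 ratio -1.59, SE 0.25; adjusted p = 0.00797 in edgeR). Spdef, a goblet and Paneth cell factor downstream of Atoh1, was at 28.8 and 31.5 CPM in GFP-high against 67.6 and 146 CPM in GFP-low (log2 ratio -1.74, SE 0.26; adjusted p = 0.00537 in edgeR). In both genes, as in Dll1 and Dll4, the control GFP-low library was the highest of the 4.

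The remaining called genes of this list also fell in GFP-high. Among them only Neurog3 did not have its highest level in the control GFP-low library. Neurod1, which is also among the enteroendocrine markers, had the largest fraction ratio of the list (log2 ratio -2.01, SE 0.28; adjusted p = 2.47e-05 in edgeR). Gfi1, a repressor in secretory precursors, had a log2 value of -1.41 (SE 0.25; adjusted p = 0.000254), Insm1 of -1.09 ± 0.30 SE (0.0122) and Neurog3, the factor that starts the enteroendocrine lineage, of -0.62 ± 0.19 SE (0.0125). None of the 7 was called for diet. Neurog3 was at 24.1 CPM under HFD against 20.2 in control in GFP-low and at 17.4 against 11.4 in GFP-high. This order was the opposite of that of Atoh1 in both fractions. Each of these comparisons is of 1 library per diet and has no test. Neurog3 shares 273 exon bases with Fam241b on the opposite strand, which had 65 to 96 counts per library. Whether Neurog3 counts include reads of Fam241b was not tested.

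Marker lists of differentiated cells differed between the diets in these libraries. The 7 goblet markers summed to 17779 CPM in HFD GFP-low against 40514 in control GFP-low, and to 3156 against 3557 CPM in GFP-high. The 8 enteroendocrine markers summed to 501 against 1173 CPM in GFP-low and to 83 against 61.2 in GFP-high, and the 7 Paneth markers to 1102 against 2264 and to 445 against 776. The 9 absorptive markers went the other way, at 6743 against 3187 CPM in GFP-low and at 992 against 748 in GFP-high. The 6 tuft markers summed to 24.7 against 31.9 CPM in GFP-low and to 16.3 against 14.1 in GFP-high. For diet over both fractions, 5 of 7 Paneth markers and 1 of 8 enteroendocrine markers were called lower, 5 of 9 absorptive markers higher, and none of the goblet markers or of the 3 tuft markers tested was called (edgeR, adjusted p under 0.05). Over all tested genes 3.50% were called lower and 2.96% higher under HFD. Dll1 was nearly level between the diets in GFP-high. There the goblet sum was slightly lower and the Paneth sum lower under HFD, and the enteroendocrine, absorptive and tuft sums were higher. The part of these cell types in the values of Dll1 and Dll4 was not tested.

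**Figure D5:**
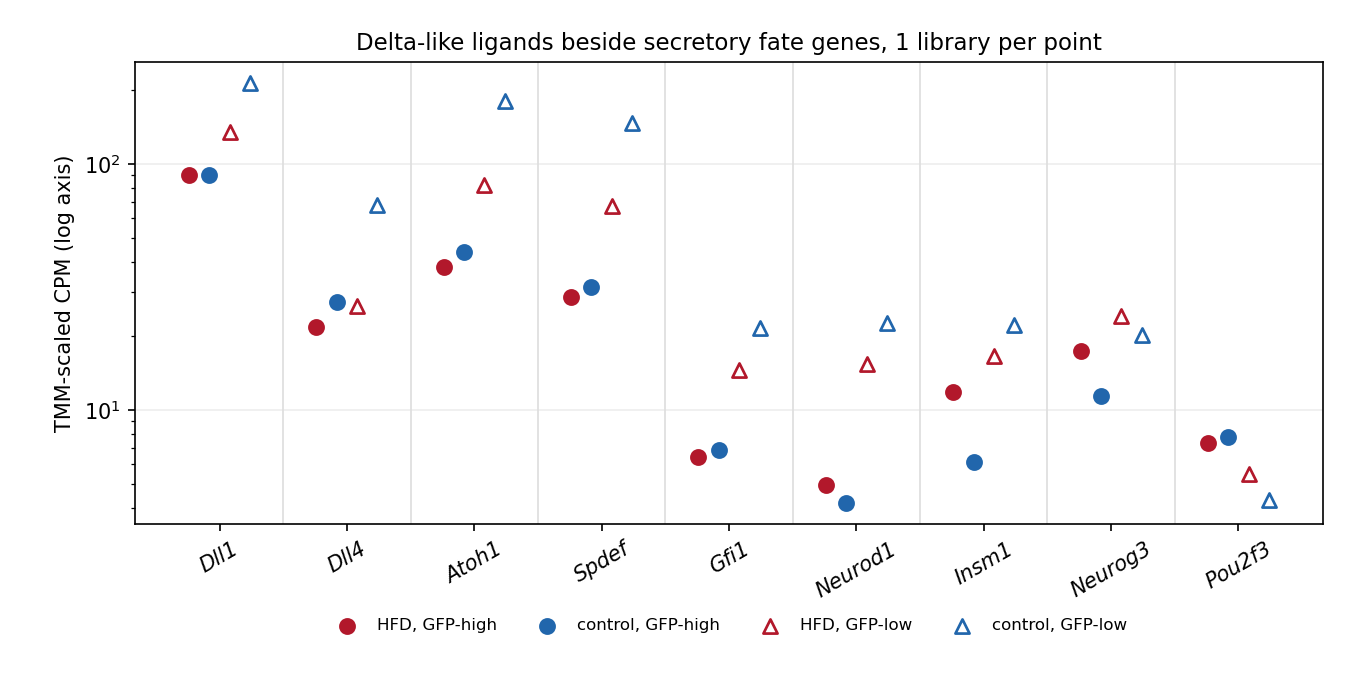
Level of Dll1 and Dll4 beside 7 secretory fate genes in each library, in TMM-scaled CPM on a log axis; each point is 1 library, circles are GFP-high, triangles are GFP-low, red is HFD and blue is control. The control GFP-low library is the highest for Dll1, Dll4, Atoh1, Spdef, Gfi1, Neurod1 and Insm1, but not for Neurog3 or Pou2f3.

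The rest of the pathway was described from 79 further genes, of which 59 passed the filter. Between the fractions 16 rose in GFP-high, 15 fell and 28 were not called, near the 22.0% and 25.6% of all tested genes. The counts of single lists that follow are to be read against these shares, and none was tested as a list. Of the receptor glycosylation genes, 5 of 6 were tested: Poglut1 and Xxylt1 rose (log2 0.61 and 0.60), and Rfng, another fringe enzyme, fell (log2 -0.48). Among the proteases that cut the receptor and their subunits, of 10 proteolysis genes 7 were tested, 4 fell in GFP-high (25.6% of all tested genes) and none rose. Among them were the gamma-secretase subunits Ncstn (log2 ratio -0.46, SE 0.10; adjusted p = 0.00134 in edgeR) and Aph1a (-0.59), and the protease Adam10 (-0.28). Ncstn shares 195 exon bases with Copa on the opposite strand, and Copa had 1488 to 2275 counts per library.

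Of the inhibitors and regulators of receptor turnover, 4 of the 8 tested rose in GFP-high and 2 fell (22.0% and 25.6% of all tested genes). Dtx4, a Deltex ubiquitin ligase, had the largest ratio of them (log2 ratio 1.33, SE 0.11; adjusted p = 7.17e-08 in edgeR). Nrarp, a Notch target that feeds back on the pathway, was at 79.7 and 68.8 CPM in GFP-high against 56.3 and 45.3 CPM in GFP-low (log2 ratio 0.55, SE 0.12; adjusted p = 0.00115 in edgeR). Bcl6, a repressor, and Nedd4, a ubiquitin ligase, also rose, and Numb, which holds back receptors, and the ubiquitin ligase Itch fell (log2 -0.36 and -0.48). Of the ligand endocytosis genes Mib1, the ligase that activates ligands in the sending cell, rose (log2 ratio 0.40, SE 0.10; adjusted p = 0.00308 in edgeR), while Neurl3 and Epn1 fell.

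Among the nuclear cofactors, Kat2a was the 1 coactivator of 7 tested that rose (log2 ratio 0.77, SE 0.11; adjusted p = 4.41e-05 in edgeR), and L3mbtl3 (0.72 ± 0.20 SE) was among the 2 corepressors of 11 that rose, where 22.0% of all tested genes did. Of the other Hes and Hey genes only Hes6 passed the filter, and it rose slightly in GFP-high (log2 ratio 0.36, SE 0.13; adjusted p = 0.028 in edgeR). Hes3 and Hey2 had no count in any library, and Hes2, Hes5, Hes7, Hey1 and Heyl had at most 7.

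In the list of genes known to respond to Notch in the intestine, Olfm4 and Ascl2 gave the largest ratios of the pathway. Olfm4, a secreted stem cell protein and Notch target, was at 5791 and 6742 CPM in GFP-high against 727 and 1003 CPM in GFP-low. Ascl2, a stem cell transcription factor, had a log2 value of 2.75 (SE 0.18; edgeR adjusted p = 5.23e-09) and Sox9 of 1.42 ± 0.10 SE (adjusted p = 1.34e-08). In this list 5 of 6 tested genes rose in GFP-high and none fell, and 3 of its 7 genes are also among the 10 stem cell markers.

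For diet, 5 of the 59 further genes tested fell under HFD, against 3.50% of all tested genes, and none rose. Myc, a growth regulator that Notch and Wnt both raise, was at 188 CPM under HFD against 305 in control in GFP-high and at 71.0 against 122 in GFP-low (log2 ratio -0.74, SE 0.10; adjusted p = 0.000157 in edgeR). Sox9 fell with log2 -0.59 (SE 0.10; adjusted p = 0.00121), Spen, a corepressor that binds Rbpj, with -0.43 ± 0.10 SE (0.0158), and the coactivator Ep300 with -0.42 ± 0.10 SE (0.015). Notch4, a receptor known from endothelium, had 30 counts in HFD GFP-high, 29 in HFD GFP-low, 48 in control GFP-high and 66 in control GFP-low. Both HFD libraries were below both control libraries (log2 ratio -1.15, SE 0.30; adjusted p = 0.0285 in edgeR). The 8 endothelial markers summed to 86, 10, 64 and 17 counts in the same order of libraries, with Cdh5 and Emcn at 0, and their part in the Notch4 values was not tested.

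The genes most like 3 of the members over the 4 libraries were found by the distance between centred log2 values, among 9002 named protein-coding genes of at least 5 CPM in every library. Nearest to Dll1 were Fndc3a, Qsox1 and Parm1, at distances of 0.07 to 0.08. Nearest to Hes1 were Arhgap39, Lipt2 and Pwp2 (0.05 to 0.06), and nearest to Jag2, whose counts are few, were Zfp952, Plin2 and Hsd17b4 (0.10 to 0.14). Qsox1, for example, was at 126 and 122 CPM in GFP-high against 197 and 304 CPM in GFP-low. The ranks describe these 4 libraries only.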

How the data were processed

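The authors deposited raw read counts for each Ensembl gene, in 1 table per library. Per the submitters' processing notes, the authors used cutadapt, TopHat version 1.4.1 and HTSeq, with the builds GRCm38 and mm10; per the labels' protocols, libraries were poly(A)-selected and strand-specific. Which annotation was counted, and with what strand option, is not given in the sources used here; overlapping genes on opposite strands may share reads. Of 38124 gene IDs, 36345 matched a symbol, including all genes of the lists. Positions and exon lengths came from GENCODE M21 (GRCm38).

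TMM factors were computed over all genes in edgeR (version 4.0.16, R version 4.3.3). Genes needed 20 counts in 2 or more libraries, which 10694 met, and all entered edgeR's robust quasi-likelihood test (two-sided; Benjamini-Hochberg adjustment over all; threshold 0.05). The additive model of diet and fraction leaves 1 residual degree of freedom, which is each gene's diet-by-fraction difference. The standard error is the log2 ratio over the root of F. With nothing but 4 libraries, p-values reflect a spread estimated from that departure from additivity and shared between genes, which may be technical. They do not measure the spread between pools of mice. Differences between 2 libraries are log2 ratios with 0.5 CPM added, which understates changes of low genes, with no test. No molecular identifiers are named, so intervals cover counting error only. The fit was tested on simulated data. Alternatives were DESeq2 version 1.42.0, other scalings, filters, pseudocounts and lengths, and TMM factors from tested genes, which was added after seeing the data.

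Members and gene lists were chosen with earlier results of these data known. The naming rule took every member, the 3 called pathway genes with the largest ratio in each direction, the tested Hes, Hey and secretory fate genes, and the nearest genes to Hes1, Jag2 and Dll1. Other pathway genes (among them Dtx4, Ncstn, Mib1, Nrarp, Spen and Ep300) were named after their values were seen. Some genes of the lists are not reported here by name.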

Additional observations from a re-analysis of the deposited data

How the results depend on the processing

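The direction of every tested member was the same in each of the 8 alternatives to the main test that gave it a value, and Notch1, Notch2, Hes1 and Dll1 were called between the fractions in all 8. DESeq2's Wald test called 2390 genes between the fractions and 189 for diet, against 5090 and 691, with 3 members higher in GFP-high. A fit with 1 factor called 2948 for fraction, with 3 members higher and 1 lower, and 0 for diet, where 149 genes had an unadjusted p under 0.05. Scaling by library totals left 1 member lower in GFP-high, gave 3633 genes higher and 1903 lower against 2350 and 2740, and moved the members' median fraction ratio from 0.36 to 0.56; a filter of 100 counts, which leaves out Jag2, gave 0.60. With every gene that had a count, 1158 genes and 2 members, both lower, were called for diet. With TMM factors from the tested genes, added after seeing the data, 545 were called for diet, and with DESeq2's size factors 495. The cause of these changes was not tested. A pseudocount of 0.1 CPM put 2 members at 2-fold or more for diet in GFP-low, Dll4 and Jag2. With the longest transcript as gene length, 6 of 10 members held their rank in HFD GFP-high and 6 in control GFP-high. With the longest transcript the ratio of ligands to receptors turned from 1.16 to 0.986 in HFD GFP-high and from 1.07 to 0.918 in control GFP-high. No paired analysis was possible because each group has 1 library; the model of fraction plus diet already compares the fractions within diets, and the fit with 1 factor leaves that out. Depth limits Jag2, with 9 to 22 counts per library, and Notch3, with 1 to 4, most.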

Other observations

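Ratios of counts between 2 genes of the same library do not depend on how the libraries were scaled. Dll1 had 2.37 counts per count of Atoh1 in HFD GFP-high (exact 95% interval 2.05 to 2.76) and 2.05 (1.75 to 2.40) in control GFP-high. In GFP-low it had 1.65 (1.46 to 1.88) under HFD and 1.18 (1.07 to 1.3) in control. The ratio was thus lowest in the control GFP-low library, where both genes were highest, and the 2 GFP-low intervals did not overlap. Dll4 per count of Atoh1 was 0.571 (0.462 to 0.703) and 0.624 (0.506 to 0.768) in GFP-high and 0.324 (0.264 to 0.396) and 0.377 (0.329 to 0.431) in GFP-low, so here the diets had overlapping intervals within each fraction. Hes1 per count of Notch1 was 0.383 (0.348 to 0.420) and 0.349 (0.315 to 0.386) in GFP-high and 0.871 (0.728 to 1.04) and 0.741 (0.618 to 0.888) in GFP-low, higher in both GFP-low libraries although both genes were lower there. These intervals cover counting error only, and the ratios compare libraries, with no replicate of any group.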
